A study of Homo sapiens with 15 samples.

Results

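The mitotic G2/M genes described here are 39 genes whose messenger RNA rises as cells leave S phase and divide, found by matching the Entrez gene numbers of the count table to a written list of mitosis symbols. All 39 were among the 28395 genes of the table, and all 39 stayed among the 16740 genes that passed the filter on low counts. Their lowest count in any library was 825. They were picked by symbol and not by a cut on any measured value, though with earlier results of these data known.

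The libraries came from BEAS-2B, a human bronchial epithelial line that was immortalised with an adenovirus-SV40 hybrid virus. Cells received nanoplastics of polyethylene terephthalate (PET-NPLs), made from water bottles, at 50 µg/mL, or no particles. RNA was taken at 70 to 80% confluence from 2 control and 2 exposed libraries at 24 h, from 2 and 2 at 15 weeks, and from 3 control and 4 exposed libraries at 30 weeks, with controls of matched passage at each time. The labels place the 24 h and 15-week libraries in batch 1 and the 30-week libraries in batch 2. They do not say which libraries came from separate cultures, so p-values measure the spread between these libraries, which may be technical. All conditions share 1 cell line, and in this bulk RNA fewer mitotic cells and less RNA per mitotic cell cannot be told apart.

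Entry into mitosis is driven by CDK1 bound to cyclin B, which the phosphatase CDC25C switches on. PLK1 and the Aurora kinases then build the spindle, and the checkpoint proteins BUB1, BUB1B and TTK hold anaphase until each kinetochore is attached. CDC20 with the anaphase-promoting complex ends the phase by sending cyclin B and securin (PTTG1) to the proteasome. Transcription of these genes is repressed by the DREAM complex in resting cells and activated by B-MYB (MYBL2) with the MuvB core and by FOXM1 in G2. DREAM and MuvB bind the cell cycle genes homology region, or CHR element, in many such promoters, often next to CCAAT boxes bound by NF-Y. The large T antigen of SV40 binds the RB family of proteins, which lie upstream of this switch.

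The promoters were read from RefSeq (GRCh38.p14) as 250 bases before to 50 bases after each gene's start. A promoter was given for 32 members, and none was at hand for FOXM1, AURKA, TPX2, BIRC5, TTK, UBE2C and RACGAP1. The CHR element was searched as TTTGAA or TTCGAA and the NF-Y box as CCAAT, each on both strands. A CHR element was found in 26 of the 32 (81.2%), against 16.6% of all 27305 promoters of this length. A CCAAT box was found in 26 (81.2%), against 35.7% of all promoters, and both stood together in 22 (68.8%), against 6.58%. At least 2 CCAAT boxes were found in 18 members (56.2%), against 11.3% of all promoters.

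Before the start, a CHR element was present in 22 members, and in 13 of them the nearest began 10 to 40 bases from it. Shown here are the 130 bases before the start of 6 members, on the strand of the gene, with CHR elements and CCAAT boxes in capitals on either strand (TTCAAA and ATTGG are the reverse strand). They were picked because CKS2, PLK1 and CDC20 were called higher in at least 1 arm between 15 and 30 weeks, and KIF11, KIF4A and PRC1 lower in both arms, while all 6 hold both motifs.
CKS2: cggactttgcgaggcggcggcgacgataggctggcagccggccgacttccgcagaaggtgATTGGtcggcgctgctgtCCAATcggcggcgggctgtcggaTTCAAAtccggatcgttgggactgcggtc
PLK1: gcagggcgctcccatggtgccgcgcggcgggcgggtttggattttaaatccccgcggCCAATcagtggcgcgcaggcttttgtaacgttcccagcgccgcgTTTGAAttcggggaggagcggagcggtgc
CDC20: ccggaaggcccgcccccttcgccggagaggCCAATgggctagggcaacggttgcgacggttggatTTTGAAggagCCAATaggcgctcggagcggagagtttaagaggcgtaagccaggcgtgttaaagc
KIF11: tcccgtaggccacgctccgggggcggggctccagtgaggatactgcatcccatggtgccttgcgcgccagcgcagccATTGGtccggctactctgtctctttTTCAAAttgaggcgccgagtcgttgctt
KIF4A: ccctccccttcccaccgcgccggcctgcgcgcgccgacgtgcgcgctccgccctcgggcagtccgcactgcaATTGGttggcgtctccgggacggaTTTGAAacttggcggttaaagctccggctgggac
PRC1: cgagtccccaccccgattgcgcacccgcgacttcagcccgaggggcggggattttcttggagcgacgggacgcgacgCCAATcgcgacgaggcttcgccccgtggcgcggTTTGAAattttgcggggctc
They lie at chr9:89311065-89311194 (CKS2, plus strand), chr16:23678759-23678888 (PLK1, plus), chr1:43358851-43358980 (CDC20, plus), chr10:92593000-92593129 (KIF11, plus), chrX:70289974-70290103 (KIF4A, plus) and chr15:90994536-90994665 (PRC1, minus). The CHR element began 29 bases before the start in CKS2 and in PLK1, 28 in KIF11, 34 in KIF4A, 20 in PRC1 and 65 in CDC20. Of the 21 members called lower in both arms, 19 had a promoter and 17 of these held a CHR element. Of the 9 called higher in either arm, 6 had a promoter and 4 held the element. A match describes these letters and not a bound site.

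Total counts per library ran from 23143202 to 31459990. Exposed replicate 2 at 30 weeks stood apart from the other exposed libraries. Its Pearson correlation of log2 CPM across genes was 0.976 to 0.981 with them, against 0.991 among the others. The 30-week controls correlated with each other at 0.983 to 0.987. Results that rest on exposed replicate 2 are given without it as well, or with its level beside the others. The 6 most abundant small noncoding RNAs, among them RN7SK and RN7SL1, took 9.75% to 12.9% of counts at 24 h and 15 weeks, 22.3% to 31.03% in the 30-week controls and 17.04% to 21.46% in the exposed cells of that time. Of the bronchial markers, KRT8 was at 127 to 187 CPM in the 30-week controls and at 450 to 710 CPM in all other groups, and KRT18 at 179 to 220 against 287 to 383 CPM. KRT7 was at 1220 to 1410 CPM at 24 h and at 1.25 to 23.4 CPM later, and EPCAM, CDH1, KRT5, KRT14, NKX2-1, FOXJ1, SCGB1A1 and MUC5AC were under 1 CPM throughout. Summed over 10 genes, fibroblast markers reached 1330 to 2480 CPM in every group, most of it VIM and THY1. The summed level of 19 skeletal muscle markers was 421 to 534 CPM in the 30-week controls and 18.7 to 45.3 CPM in all other groups. In those controls TNNT1 was at 186 to 235, MYOD1 at 65.8 to 106 and JSRP1 at 67.5 to 90.5 CPM. MYOD1 was at most 5.72 CPM in any other group. MYOG was at 2.13 to 3.19 CPM in those controls, and MYF5 and MYF6 were at 0. Of the 11 muscle markers tested, 10 were called lower in exposed than in control cells at 30 weeks and 0 higher. Endothelial markers summed to at most 2.42 CPM, and blood cell markers to at most 7.15 CPM, nearly all of it CD14.

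Together the 39 genes took 1.002% to 1.103% of all counts in the 8 libraries of 24 h and 15 weeks, 0.4431% to 0.601% in the 30-week controls and 0.5874% to 0.7701% in the exposed cells at 30 weeks. Levels are given as CPM, which are counts scaled to the depth of the library, corrected by the trimmed mean of M values (TMM). Compared per kilobase of transcript, CCNB1 was highest in the 24 h controls at a mean of 330.0 CPM per kb and FOXM1 lowest at 16.9. In the 30-week controls CKS2 was highest at 569.0 and KIF4A lowest at 12.7 CPM per kb. The map of members by library shows little change over the first 8 columns and a split among the genes at 30 weeks, with most rows low and a minority high.

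**Figure D1:**
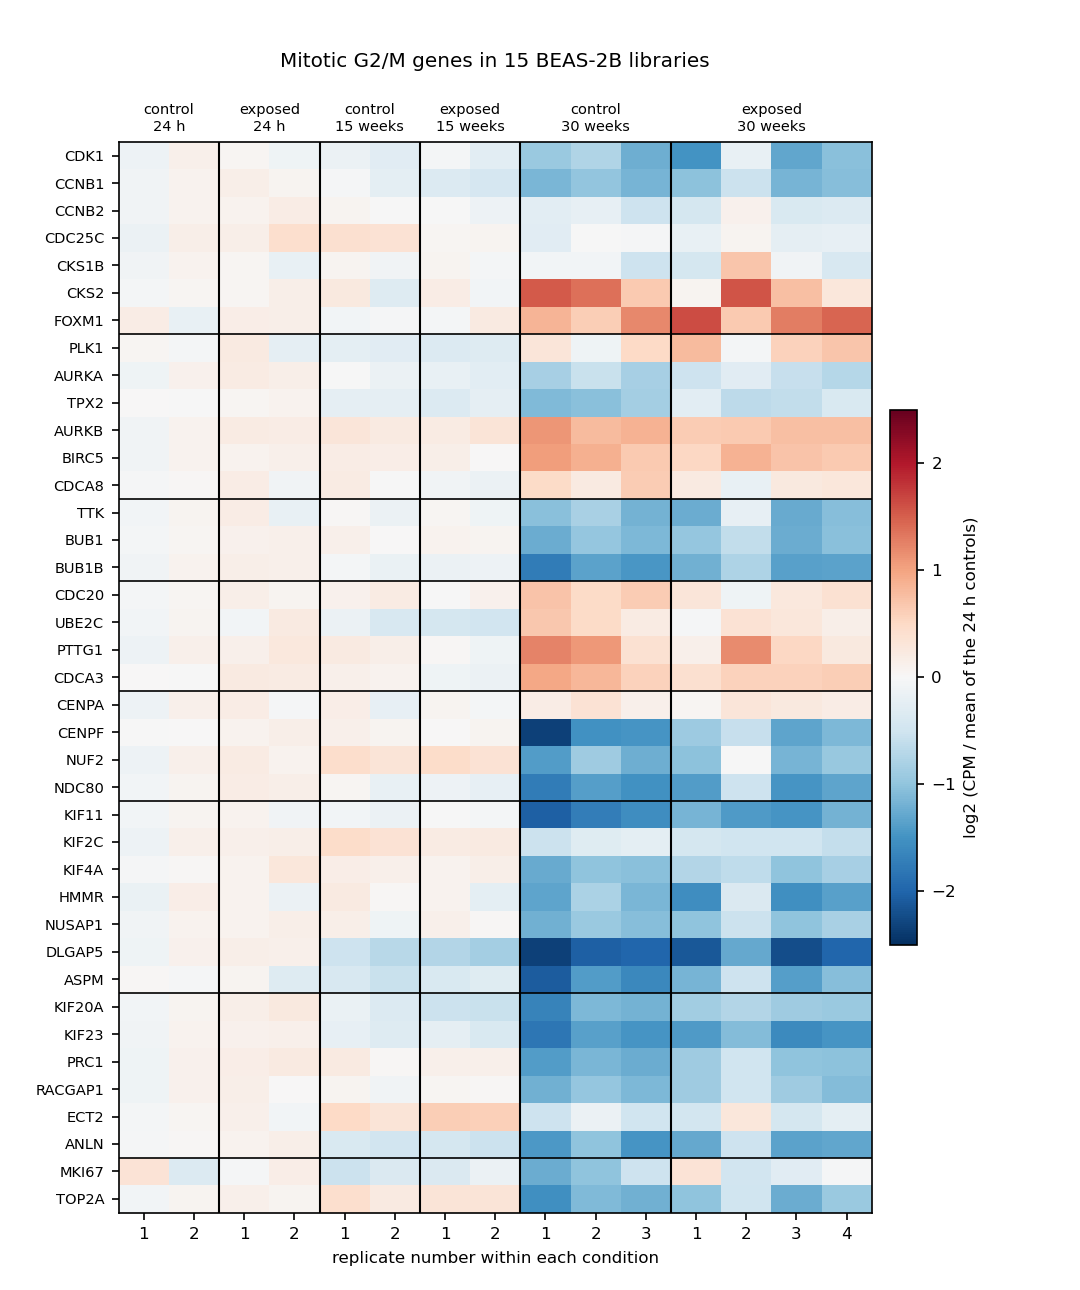
Each row is 1 of the 39 mitotic genes, ordered by role, and each column 1 library; the colour is the log2 ratio of its CPM to the mean of the 24 h controls. The 30-week columns split the genes, with DLGAP5, CENPF and KIF11 among the lowest rows and CKS2 and FOXM1 among the highest, and exposed replicate 2 departs from its 3 neighbours in many rows.

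The comparison of exposed with control cells asked whether the particles changed the mitotic programme at each time. A gene is called here when its p-value from edgeR's quasi-likelihood test, adjusted over all 16740 genes by the Benjamini-Hochberg method, is under 0.05. At 24 h no member was called, against 0% of all genes. An unadjusted p under 0.05 was found for 0 members and for 277 of the 16740 genes. DESeq2 and limma-voom called 0 as well. The median log2 difference was 0.11, with 34 members above 0 and 5 below, and the largest were CDC25C (0.28 ± 0.157, SE) and CDCA3 (0.21 ± 0.141). The 2 exposed libraries lay above both controls for 16 members (41%) and below both for none, beside 26% of all genes whose groups did not overlap in either direction. CDCA3 was at 47.4 and 46.7 CPM in the controls and at 54.8 and 53.9 CPM in exposed cells, and CENPF at 592 and 600 against 637 and 663 CPM, groups that do not overlap. CDK1 was at 184 and 219 CPM in the controls and at 208 and 187 CPM in exposed cells, and MKI67, the antigen of the Ki-67 stain, at 509 and 313 against 391 and 445 CPM. In CDK1 and MKI67 the exposed values lay between the control values.

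At 15 weeks no member was called either, against 0% of all genes, and DESeq2 and limma-voom called 0. An unadjusted p under 0.05 was found for 0 members and for 823 of the 16740 genes. The median log2 difference was -0.04. The groups did not overlap for 20 members (51.3%), 16 lower and 4 higher, beside 45.3% of all genes. The members with the smallest p were CDC25C (-0.31 ± 0.157), the motor KIF20A (-0.30 ± 0.172) and CDCA3 (-0.24 ± 0.141), each with an adjusted p of 1. KIF20A was at 352 and 308 CPM in the controls and at 270 and 267 CPM in exposed cells, which do not overlap, and it was called lower with this time point fitted alone. PLK1 was at 55.5 and 53.8 against 52 and 52.8 CPM, and TOP2A at 1220 and 1070 against 1140 and 1140 CPM.

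After 30 weeks of exposure 7 of the 39 members were higher and 1 was lower than in passage-matched controls. The genes that rose were MKI67, CENPF, ASPM, TPX2, KIF11, KIF20A and PRC1, by 1.33 to 1.75 times, and the gene that fell was CDC20, to 0.764 of the control level. Over all genes 23.7% were called, 12% higher and 11.7% lower, so that the 20.5% of members called is near the background. For 15 members the unadjusted p was under 0.05, as it was for 5989 of all 16740 genes. The members' median log2 difference was 0.22, beside 0.01 for all genes, with 27 above 0 and 12 below. This shift rested on exposed replicate 2: without it the median was 0.01, with 22 above 0 and 17 below. With 2 surrogate variables in limma-voom it was -0.04, with 16 above and 23 below. The groups did not overlap for 9 members (23.1%), 7 higher and 2 lower, against 27.3% of all genes. The smaller and the larger changes are plotted library by library.

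**Figure D2:**
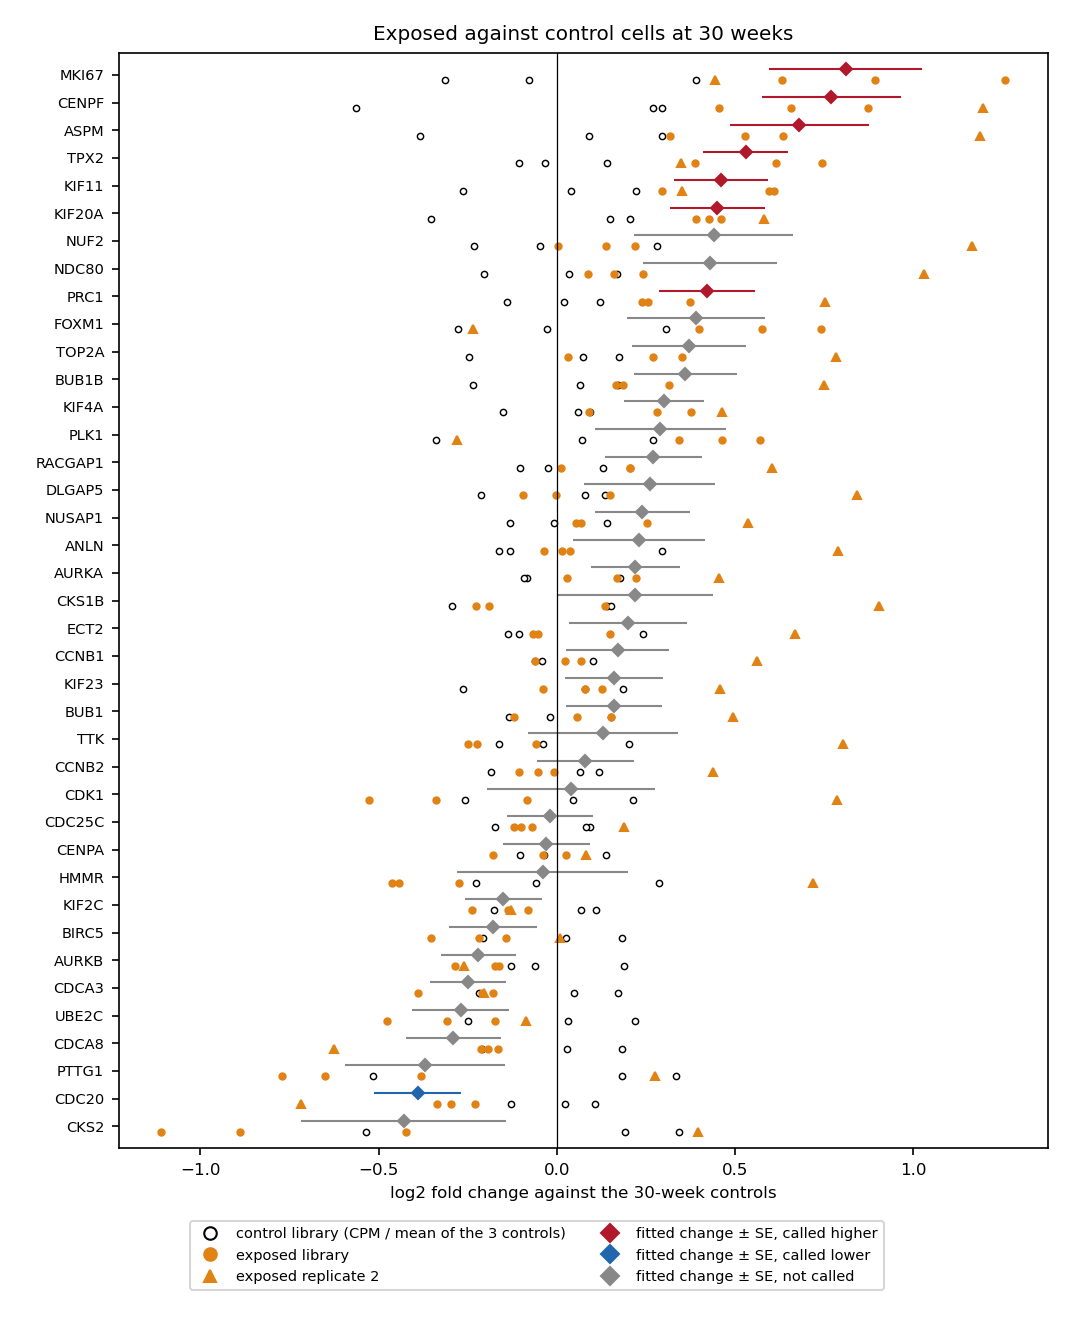
For each of the 39 genes, circles show the 3 control and 4 exposed libraries of 30 weeks as log2 ratios to the control mean, triangles mark exposed replicate 2, and diamonds with bars show the fitted log2 fold change ± SE. The 7 called higher run from 0.42 (PRC1) to 0.81 (MKI67), CDC20 is the 1 called lower, and the triangle lies to the right of the other exposed libraries for 29 genes.

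In the CDK1-cyclin B engine and its regulators, 0 of 7 members were called. CDK1 itself was at 106, 119 and 85.8 CPM in the controls and at 71.2, 177, 81.1 and 96.8 CPM in exposed cells. Exposed replicate 2 was the highest of the 7 libraries, and 2 of the other 3 exposed libraries were below each control. The log2 difference was 0.04 ± 0.235 (adjusted p = 0.927, edgeR) and turned to -0.32 without that library (adjusted p = 0.0738). CCNB1, its cyclin partner, was at 304, 336 and 300 CPM against 328, 462, 300 and 318 CPM, groups that overlap (0.17 ± 0.145, adjusted p = 0.443).

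FOXM1, the G2 transcription factor, was at 108, 90.7 and 136 CPM in the controls and at 184, 93.5, 145 and 164 CPM in exposed cells. Exposed replicate 2 sat among the controls and the other 3 lay above them. The difference was 0.39 ± 0.193 (adjusted p = 0.158), and 0.56 without that library (adjusted p = 0.00453). CKS2, a small subunit that binds CDK1, was at 430, 387 and 234 CPM against 157, 446, 253 and 183 CPM, groups that overlap widely (-0.43 ± 0.287, adjusted p = 0.304). It was called lower without exposed replicate 2.

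Of the mitotic kinases and their partners, 1 of 6 was called. TPX2, which activates Aurora A on the spindle, was at 154, 162 and 183 CPM in the controls and at 278, 211, 217 and 254 CPM in exposed cells. All 4 exposed libraries were above all controls, a rise of 0.53 ± 0.119 or 1.44-fold (adjusted p = 0.0043). It was called under all 26 alternatives tried, with adjusted p from 7.63e-05 to 0.0475. AURKA, the kinase it activates, was at 161, 193 and 160 against 199, 234, 192 and 174 CPM (0.22 ± 0.124, adjusted p = 0.216).

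PLK1 was at 80.7, 60.7 and 92.6 CPM in the controls and at 114, 63.3, 97.4 and 106 CPM in exposed cells, 3 of them above each control. The difference of 0.29 ± 0.183 did not pass (adjusted p = 0.284), and it passed without exposed replicate 2 (0.44, adjusted p = 0.0179). AURKB, the kinase of the chromosomal passenger complex, was at 157, 126 and 132 against 113, 115, 123 and 122 CPM. Its groups do not overlap, the exposed being lower, but the difference of -0.22 ± 0.105 was not called (adjusted p = 0.136). Its partners in that complex had differences of -0.18 ± 0.124 (BIRC5, survivin) and -0.29 ± 0.132 (CDCA8, borealin).

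None of the 3 spindle checkpoint genes was called. BUB1 was at 75.1, 91.6 and 81.3 CPM in the controls and at 91.6, 116, 75.8 and 85.7 CPM in exposed cells, which overlap (0.16 ± 0.134, adjusted p = 0.429). BUB1B differed by 0.36 ± 0.144 (adjusted p = 0.0807) and TTK by 0.13 ± 0.211. TTK was at 146 CPM in exposed replicate 2, at 70.4 to 80.3 CPM in the other exposed libraries and at 74.8 to 96.2 CPM in controls.

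All 4 partners and targets of the anaphase-promoting complex had negative differences, from -0.25 to -0.39, and 1 was called. CDC20, its activator in metaphase, was at 246, 209 and 232 CPM in the controls and at 186, 139, 181 and 195 CPM in exposed cells. Every exposed library was below every control, a fall of 0.39 on the log2 scale (-0.39 ± 0.122, adjusted p = 0.0297). PTTG1 (securin) differed by -0.37 ± 0.224, the ubiquitin-conjugating enzyme UBE2C by -0.27 ± 0.136 and CDCA3 by -0.25 ± 0.107, none of them called.

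In the centromere and kinetochore group, CENPF was called and CENPA, NUF2 and NDC80 were not. CENPF, a large protein of the outer kinetochore, was at 118, 210 and 214 CPM in the controls and at 319, 399, 239 and 275 CPM in exposed cells. The groups do not overlap, and the rise was 0.77 ± 0.195 or 1.7-fold (adjusted p = 0.00932). Control replicate 1 was far under the other controls, and without it the rise was 0.55 (adjusted p = 0.0406). The differences of NUF2 (0.44 ± 0.223) and NDC80 (0.43 ± 0.188), which join microtubules to the kinetochore, were not called. Exposed replicate 2 held 93.5 and 92.4 CPM of them, while the other exposed libraries held 41.8 to 48.6 and 48.1 to 53.5 CPM.

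Of the spindle motors and microtubule-binding proteins, 2 of 7 were called. KIF11, the motor that pushes the spindle poles apart, was at 59.5, 73.5 and 83.4 CPM against 109, 91.1, 87.6 and 108 CPM in exposed cells (0.46 ± 0.131, 1.37-fold, adjusted p = 0.0185). ASPM, which focuses the poles, was at 110, 176 and 153 against 207, 327, 179 and 223 CPM (0.68 ± 0.194, 1.6-fold, adjusted p = 0.0191). Neither gene's groups overlap. KIF4A had 0.30 ± 0.113 (adjusted p = 0.0617), DLGAP5 0.26 ± 0.184, NUSAP1 0.24 ± 0.132, HMMR -0.04 ± 0.24 and KIF2C -0.15 ± 0.108. DLGAP5 was at 82.3 CPM in exposed replicate 2, at 43 to 50.9 CPM in the other exposed libraries and at 39.6 to 50.4 CPM in controls.

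All 6 genes of the midzone and cytokinesis had positive differences, and 2 were called. KIF20A, a motor of the midzone, was at 123, 181 and 174 CPM in the controls and at 216, 235, 211 and 206 CPM in exposed cells (0.45 ± 0.133, 1.36-fold, adjusted p = 0.0232). PRC1, which bundles the midzone microtubules, was at 126, 151 and 141 against 180, 234, 166 and 164 CPM (0.42 ± 0.135, 1.33-fold, adjusted p = 0.035). Both stood above all controls in all 4 exposed libraries. The other 4 genes, KIF23, RACGAP1, ECT2 and ANLN, had differences of 0.16 to 0.27, and exposed replicate 2 was the highest library for each. For KIF23, ECT2 and ANLN the other exposed libraries lay within the range of the controls. ANLN was at 578 CPM in exposed replicate 2, at 326 to 343 CPM in the other exposed libraries and at 299 to 410 CPM in controls.

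MKI67, which coats mitotic chromosomes, had the largest difference of the 39. It was at 170, 200 and 277 CPM in the controls and at 505, 287, 327 and 392 CPM in exposed cells, with no overlap (0.81 ± 0.214, 1.75-fold, adjusted p = 0.0119). TOP2A, the topoisomerase that untangles sister chromatids, was at 316, 423 and 395 against 452, 645, 383 and 478 CPM, which overlap (0.37 ± 0.16, adjusted p = 0.106).

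**Figure D3:**
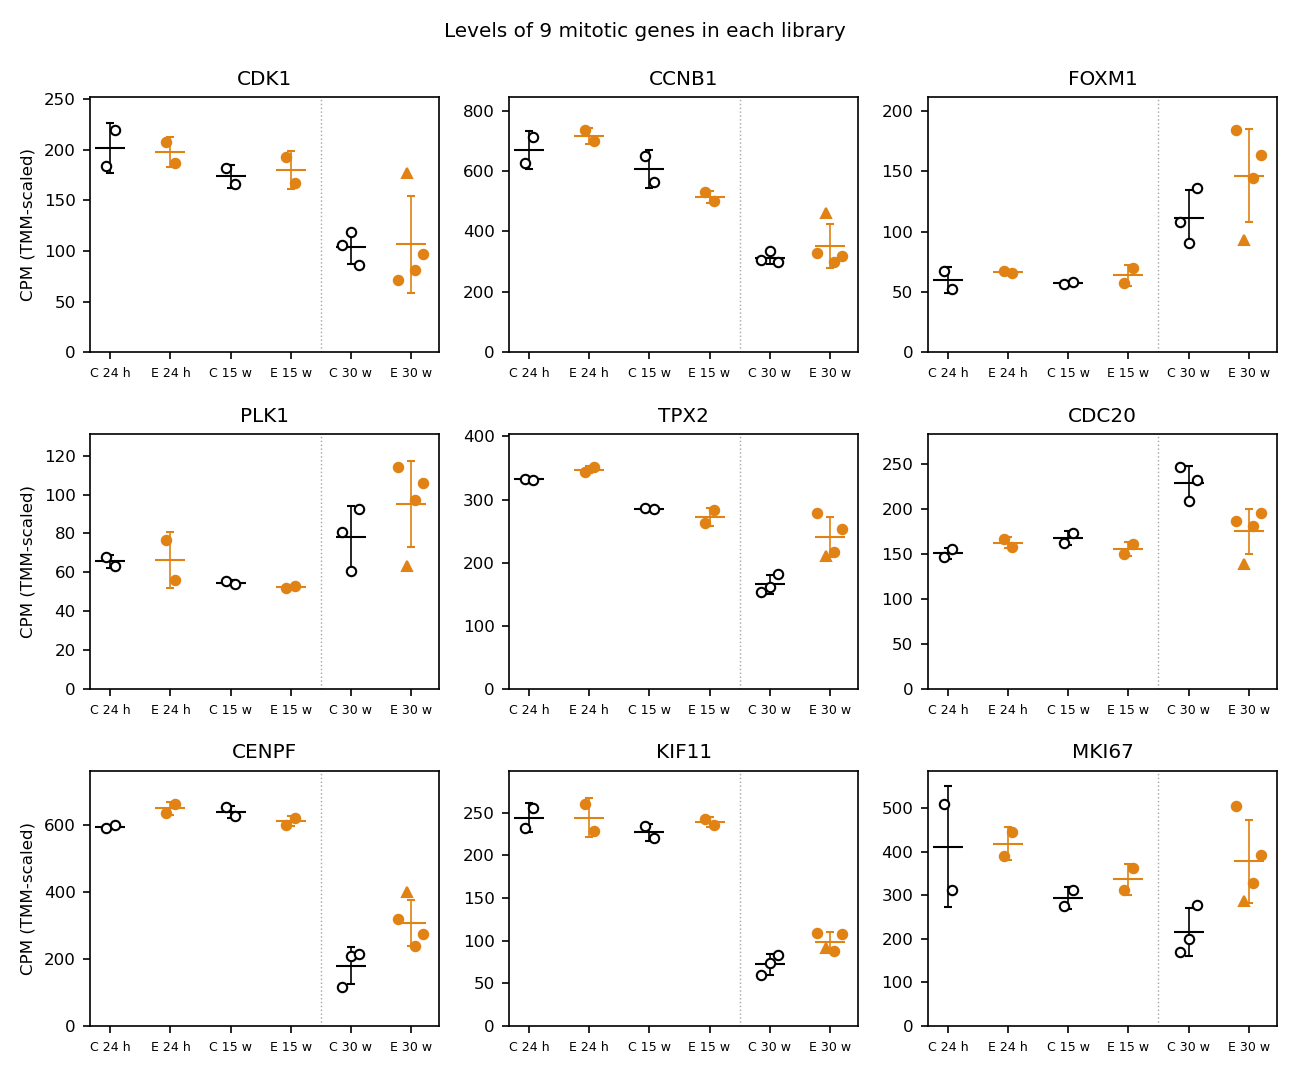
CPM of 9 mitotic genes (vertical axis, from 0) in every library of the control (C, open black) and exposed (E, orange) groups at 24 h, 15 weeks (15 w) and 30 weeks (30 w), with the mean and SD; the dotted line separates batch 1 from batch 2 and triangles mark exposed replicate 2. CENPF and KIF11 are lower and FOXM1 is higher in both arms at 30 weeks. At that time TPX2, CENPF, KIF11 and MKI67 (exposed higher) and CDC20 (exposed lower) do not overlap between the arms.

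Single libraries decided how many members were called at 30 weeks. Without control replicate 1, the library with the most small noncoding RNA (31.03% of counts), TPX2 and CENPF were the only 2 called, with 14.9% of all genes. Without exposed replicate 2 there were 13 (33.3%), beside 34.2% of all genes, and FOXM1 and PLK1 were added to those that rose and CKS2, PTTG1 and HMMR to those that fell. Fitting the 7 libraries of this time point alone left TPX2 and MKI67, with 15.3% of all genes called. Limma-voom with 2 surrogate variables called 9 members and 30.5% of all genes, and 4 of the 9 were called by edgeR (TPX2, CENPF, KIF11 and MKI67). The calls of ASPM (0.29, adjusted p = 0.0687), KIF20A (0.25, adjusted p = 0.0607), PRC1 (0.22, adjusted p = 0.0945) and CDC20 (-0.24, adjusted p = 0.0682) were lost there, and FOXM1 and PLK1 were called higher and CKS2, PTTG1 and HMMR lower. The muscle markers that were high in the 30-week controls moved with this comparison, and so did KRT8 (127 to 187 CPM in controls, 541 to 710 CPM in exposed cells, 2.04 ± 0.157, adjusted p = 1.29e-07) and the share of small noncoding RNA. Of 13 bronchial markers 7 passed the filter, and 4 of these were called higher in exposed cells. The part of any of these in the members' differences was not tested.

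The difference between the exposure changes at 30 and at 15 weeks was tested directly and was called for 0 members (edgeR), against 4.74% of all genes. An unadjusted p under 0.05 was found for 3 members, KIF20A (0.74 ± 0.218, adjusted p = 0.068), TPX2 (0.59 ± 0.194, adjusted p = 0.11) and CENPF (0.84 ± 0.317, adjusted p = 0.19). It was found for 2559 of all 16740 genes. DESeq2 called TPX2 and KIF20A, 5.13% of members beside 6.81% of all genes. Limma-voom called 0, beside 4.74% of all genes, and with 2 surrogate variables it called 4 (10.3%, beside 13.4%). The exposure change at 30 weeks is therefore not shown by the main test to exceed that at 15 weeks for any member.

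Between 15 and 30 weeks most members changed in the controls. Of the 39 members 25 fell and 8 rose, with a median log2 difference of -0.79 beside 0.01 for all genes. Over all genes 50.3% were called, 25.6% higher and 24.6% lower, against 84.6% of members. The groups did not overlap for 36 members (92.3%), 26 lower and 10 higher, beside 68.1% of all genes. This step also crosses from batch 1 to batch 2, so that time in culture and batch cannot be told apart. The skeletal muscle markers and the share of small noncoding RNA rose in the controls over the same step, and 5 of the 7 tested bronchial markers were called lower. Their part in the members' falls was not tested.

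In exposed cells, whose libraries are not shared with that comparison but cross the same batches, 21 members fell and 6 rose, with a median of -0.58. Over all genes 46% were called, 23.3% higher and 22.7% lower, against 69.2% of members. The groups did not overlap for 28 members (71.8%), against 56.1% of all genes. The 21 that fell in exposed cells had all fallen in controls, and 5 rose in both arms (FOXM1, AURKB, BIRC5, UBE2C and CDCA3). No member was called in opposite directions, and 37 of 39 had the same sign. CCNB2, CKS1B, CDCA8, CENPA and MKI67 were called in neither arm. Of the 21, 20 fell by less in exposed cells than in controls, a difference that is the same quantity as the test across times above, where 0 were called. In exposed cells the summed muscle markers were at 18.7 to 23.4 CPM at 15 weeks and at 33.4 to 45.3 CPM at 30 weeks, while the small noncoding RNAs went from 9.748% to 10.19% of counts to 17.04% to 21.46%.

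**Figure D4:**
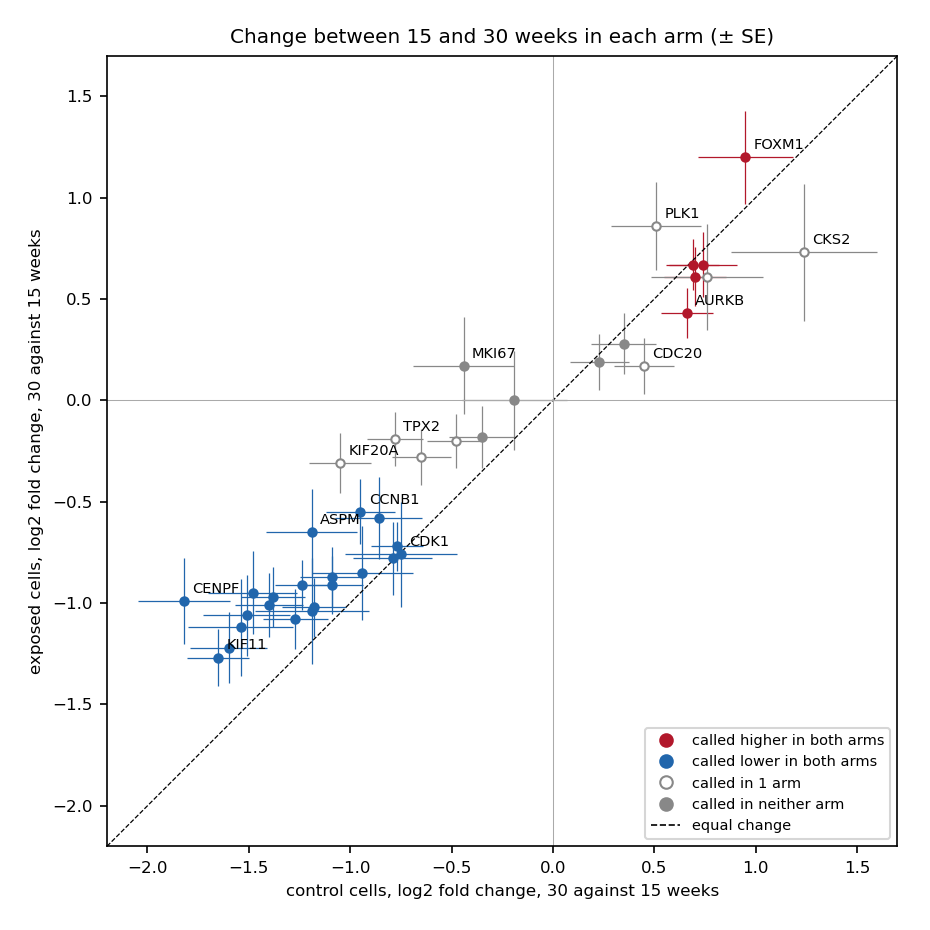
Log2 fold change of each mitotic gene from 15 to 30 weeks in control cells (horizontal) and in exposed cells (vertical), with bars of 1 SE; filled red and blue points were called in both arms and the dashed line marks equal change. The 21 blue genes lie at the lower left, 20 of them above the dashed line, and the 5 red genes at the upper right.

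Genes of the engine split. CDK1 was at 182 and 166 CPM in the 15-week controls and fell to 106, 119 and 85.8 CPM (-0.75 ± 0.277, adjusted p = 0.0333). That call was lost without control replicate 1 or 3 of 30 weeks, and also without either control of 15 weeks, which leaves 1 library in that group. In exposed cells CDK1 went from 193 and 167 to 71.2, 177, 81.1 and 96.8 CPM. CDK1 was called lower there, but not without exposed replicate 1, 3 or 4 of 30 weeks. Nor was it called without either exposed library of 15 weeks, which leaves 1 in that group. CCNB1 fell from 650 and 563 to 304, 336 and 300 CPM in controls (-0.95 ± 0.17), and from 529 and 500 to between 300 and 462 CPM in exposed cells (-0.55 ± 0.161, adjusted p = 0.0111). FOXM1 went the other way, from 57 and 58.6 CPM to 108, 90.7 and 136 CPM in controls, 1.93-fold (0.95 ± 0.236, adjusted p = 0.00332), and by 2.3-fold in exposed cells (1.20 ± 0.23, adjusted p = 0.000595). CKS2 rose from 178 and 119 to 430, 387 and 234 CPM in controls (1.24 ± 0.359, adjusted p = 0.00886), and in exposed cells its 0.73 ± 0.338 did not pass (adjusted p = 0.0898).

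The kinase group split as well. AURKA fell in controls from 283 and 256 to 161, 193 and 160 CPM (-0.65 ± 0.146, adjusted p = 0.00158), and TPX2 from 286 and 285 to 154, 162 and 183 CPM (-0.78 ± 0.139, adjusted p = 0.000261). In exposed cells neither passed (AURKA -0.28 ± 0.139, TPX2 -0.19 ± 0.133). AURKB rose in controls from 90 and 84.7 to 157, 126 and 132 CPM (0.66 ± 0.128) and in exposed cells (0.43 ± 0.122), and BIRC5 rose by 0.70 ± 0.152 and 0.61 ± 0.145. PLK1 passed in exposed cells, from 52 and 52.8 to 114, 63.3, 97.4 and 106 CPM (0.86 ± 0.215, adjusted p = 0.004), and not in controls (0.51 ± 0.221, adjusted p = 0.0642).

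The 3 checkpoint genes fell in both arms. BUB1 went from 195 and 178 CPM to 75.1, 91.6 and 81.3 CPM in controls (-1.18 ± 0.157, adjusted p = 2.02e-05), and from 189 and 186 to 91.6, 116, 75.8 and 85.7 CPM in exposed cells (-1.02 ± 0.146, adjusted p = 6.12e-05). The partners and targets of the anaphase-promoting complex moved against this. All 4 rose in controls. CDC20 went from 162 and 173 to 246, 209 and 232 CPM (0.45 ± 0.148, adjusted p = 0.0174). PTTG1 went from 240 and 229 to 484, 436 and 269 CPM (0.76 ± 0.275, adjusted p = 0.0309). The calls of CDC20 and PTTG1 were lost without control replicate 1 of 30 weeks, and that of PTTG1 also without control replicate 2 of 30 weeks. Both were lost without either control of 15 weeks, which leaves 1 library in that group. UBE2C (0.74 ± 0.167 in controls, 0.67 ± 0.159 in exposed cells) and CDCA3 (0.69 ± 0.131 and 0.67 ± 0.126) rose in both arms, while CDC20 (0.17 ± 0.139) and PTTG1 (0.61 ± 0.262) did not pass in exposed cells.

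Kinetochore and spindle genes were among those that fell most. CENPF went from 653 and 627 CPM to 118, 210 and 214 CPM in controls, 3.54-fold lower (-1.82 ± 0.227, adjusted p = 1.09e-05), and from 601 and 622 to 319, 399, 239 and 275 CPM in exposed cells, 1.98-fold lower (-0.99 ± 0.211, adjusted p = 0.00135). KIF11 went from 234 and 220 to 59.5, 73.5 and 83.4 CPM in controls, 3.15-fold lower (-1.65 ± 0.153, adjusted p = 8.4e-07), and was 2.41-fold lower in exposed cells. NUF2 (-1.54 ± 0.26 and -1.12 ± 0.241) and DLGAP5 (-1.51 ± 0.215 and -1.06 ± 0.2) fell in both arms. No 15-week library of CENPF or KIF11 overlapped any 30-week library of its arm.

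All 7 spindle motors and microtubule-binding proteins fell in both arms, as did 6 of the 6 midzone and cytokinesis genes in controls and 5 of them in exposed cells, where KIF20A was the exception (-1.05 ± 0.155 in controls, -0.31 ± 0.148 in exposed cells). KIF23, a motor of the central spindle, fell by 1.27 and by 1.08 on the log2 scale (adjusted p = 1.2e-05 and 4.64e-05). TOP2A went from 1220 and 1070 to 316, 423 and 395 CPM in controls, 3.03-fold lower, and was 2.33-fold lower in exposed cells. MKI67 changed by -0.44 ± 0.248 in controls and by 0.17 ± 0.239 in exposed cells, neither of them called.

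From 24 h to 15 weeks, within batch 1, few members moved. In controls 1 of 39 was called, against 24.9% of all genes (12.7% higher, 12.2% lower). KIF2C, a kinesin that takes microtubules apart, rose from 195 and 231 to 291 and 272 CPM (0.40 ± 0.142, adjusted p = 0.0493), and it was called in 3 of the 15 fits that left out a library. In exposed cells 3 fell, against 26% of all genes called (13.5% higher, 12.5% lower). DLGAP5, a spindle protein, went from 221 and 219 to 121 and 111 CPM (-0.92 ± 0.239, adjusted p = 0.0094). KIF20A went from 436 and 462 to 270 and 267 CPM (-0.74 ± 0.173, adjusted p = 0.00478), and UBE2C from 165 and 202 to 128 and 124 CPM (-0.55 ± 0.179, adjusted p = 0.0334).

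The number called in this step depended on the fit. With the 8 libraries of batch 1 fitted alone it was 11 in controls (28.2%, beside 42.6% of all genes) and 15 in exposed cells (38.5%, beside 43.7%), and without exposed replicate 2 of 30 weeks, which enters this step through the shared estimate of spread, it was 6 (15.4%, beside 33.4% of all genes) and 8 (20.5%, beside 34.3%). Without exposed replicate 2 of 15 weeks only KIF20A was called in exposed cells.

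At 30 weeks the members' differences varied with the length of their transcripts. Transcript length and GC content were taken from the Ensembl canonical transcript (GENCODE v44). In controls between 15 and 30 weeks, Spearman's rho over the 39 members was -0.62 with length and 0.64 with GC content, and in exposed cells -0.55 and 0.71. In exposed against control cells at 30 weeks it was 0.69 with length and -0.26 with GC content. Members share libraries and are not independent, so these are descriptions. Over 15887 genes with both values the same correlations were -0.25, -0.19 and 0.24 with length, and 0.38, 0.44 and -0.17 with GC content. In the comparisons without 30-week libraries, rho with length over the members was -0.17 for exposure at 24 h, 0.34 for exposure at 15 weeks, and from 24 h to 15 weeks -0.19 in controls and -0.01 in exposed cells.

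The 25 members that fell in controls had a median transcript of 3095 bases and a GC content of 41.6%, and the 8 that rose had 1193.5 bases and 52.5%. The 7 higher in exposed cells at 30 weeks had a median of 5016 bases, against 2862 for all members and 3015 for all genes. CKS2, the shortest member at 616 bases, rose most in the controls, and MKI67, the longest at 12716 bases, differed most at 30 weeks. FOXM1, at 3552 bases, rose between 15 and 30 weeks against that order.

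With smooth functions of length and GC content taken out of each library as an offset, a setting added after the data had been seen, 13 members were called at 30 weeks, 11 higher and 2 lower, against 28.5% of all genes. The 8 of the main fit were among them. MKI67 then differed by 0.70 (adjusted p = 0.000618), CENPF by 0.68 (adjusted p = 0.00203), TPX2 by 0.44 (adjusted p = 0.0021) and CDC20 by -0.26 (adjusted p = 0.0397). Between 15 and 30 weeks 31 members (79.5%) were called in controls, 27 of them lower, against 49.6% of all genes, and 23 (59%) in exposed cells, 19 of them lower, against 43.3%. CDC20 turned from 0.45 to -0.02 in controls and AURKB from 0.43 to -0.03 in exposed cells, and UBE2C (0.13, adjusted p = 0.347), CDCA3 (0.10, adjusted p = 0.441) and AURKB (0.07, adjusted p = 0.552) were no longer called in controls. In exposed cells UBE2C (0.23, adjusted p = 0.0867), CDCA3 (0.21, adjusted p = 0.0829) and BIRC5 (0.37, adjusted p = 0.0525) lost their calls as well. Of the 5 members that rose in both arms, FOXM1 was the 1 still called in both (0.63 and 0.83). CKS2 and PTTG1, called higher in controls and not in exposed cells by the main fit, were called higher in both arms with the offset.

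Other genes of the cell cycle were read from lists that hold none of the 39. Of 61 other mitotic genes, 12 were higher and 2 lower at 30 weeks of exposure (median 0.26), 23% of the list beside 23.7% of all genes, among them GAS2L3 (0.68 ± 0.126), the condensin SMC2 (0.65 ± 0.154) and the centromere factor MIS18A (0.64 ± 0.117). Between 15 and 30 weeks 29 of them fell and 8 rose in controls, 60.7% beside 50.3% of all genes. Of 16 subunits of the anaphase-promoting complex, 18.8% were called with exposure, where 1 was higher (CDC16, 0.59 ± 0.107) and 2 were lower (ANAPC11, -0.59 ± 0.141, and ANAPC15, -0.48 ± 0.133).

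Of 12 regulators in the DREAM and MYB-MuvB complexes, 3 rose with exposure and 1 fell, 33.3% beside 23.7% of all genes. MYBL2, which encodes the activator B-MYB, averaged 114 ± 27.6 CPM (SD, n = 3) in the 30-week controls and 250 ± 53.6 CPM (n = 4) in exposed cells (1.13 ± 0.181, adjusted p = 0.000278, edgeR). TFDP1, the partner of E2F factors, rose by 0.69 ± 0.119 and RBL1, the pocket protein p107, by 0.37 ± 0.118. Of 31 genes of S phase, 4 were higher and 0 lower, 12.9% beside 23.7% of all genes. Among the 4 were cyclin E1 (CCNE1, 1.51 against 4.01 CPM, 1.40 ± 0.261), the helicase subunit MCM6 (0.54 ± 0.124) and the ribonucleotide reductase subunit RRM2 (0.42 ± 0.124). Between 15 and 30 weeks S phase genes had a median of 0.15 in controls and 0.27 in exposed cells, where the 39 mitotic genes had -0.79 and -0.58. Of 11 brakes on the cyclin-dependent kinases, 2 (18.2%) were lower with exposure, CDKN1C (-0.96 ± 0.23) and CDKN1A (-0.38 ± 0.128, adjusted p = 0.0434).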

How the data were processed

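RNA was measured by RNA-seq of ribosome-depleted total RNA (TruSeq Stranded) in 15 BEAS-2B libraries. The authors filtered reads with Rfastp, mapped them to GRCh38 (hg38 per the labels) and counted them per gene with featureCounts in Rsubread; the deposited values are raw counts with no normalization. bcl2fastq is also named in the submitters' processing notes. The strand setting of the counting is not given in the sources used here, so overlapping genes are uncertain.

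Of 28395 genes, 27745 had a symbol. Genes were filtered with filterByExpr on the 6 groups, scaled by TMM and fitted with edgeR 4.0.16 (quasi-likelihood, R 4.3.3) on all 15 libraries with 1 mean per group. The 8 comparisons were exposed against control at each time, the difference between 30 and 15 weeks, and 15 weeks against 24 h and 30 against 15 weeks in each arm. Adjustment was by Benjamini-Hochberg over 16740 genes, with a threshold of 0.05. Errors of fold changes are standard errors, and logarithms of CPM took a prior count of 2. The depth was 23143202 to 31459990 counts per library. The procedure was tested on simulated data.

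The members and lists were chosen with earlier results of these data known. The text names 12 landmark members, the 5 largest called changes in each direction, any other member called with exposure, and the 3 largest called changes at 30 weeks in each other list of cell cycle genes; others were named after their values were seen. Alternatives were DESeq2 1.42.0, limma-voom (limma 3.58.1) alone and with 2 surrogate variables (sva 3.50.0), separate fits by time point or batch, a filter of 10 counts in each library, no filter at all, scaling by the upper quartile, thinned counts, counts without 6 small RNAs, the replicate number as a block, and each library left out. An offset for GC content and length (splines with 5 degrees of freedom, 15887 genes) was added after seeing the data. GENCODE v44 gave transcript lengths and RefSeq the promoters.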

Additional observations from a re-analysis of the deposited data

Results flagged for a closer look

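Single libraries were compared with the others of their group in the 4 exposed samples at 30 weeks, where the gap of the highest or lowest sample to its neighbour was set against the whole range (Dixon's ratio, at its 95% critical value). At that value chance marks about 1 in 20 groups taken singly. Of the 39 members 9 were marked. Members share libraries and the share over all genes was not computed, so this count has no background beside it. Exposed replicate 2 was the highest for CCNB2 at 136 CPM (the others 93.3 to 99.9), CDC25C at 49.1 CPM (39.7 to 41.1), TTK at 146 CPM (70.4 to 80.3), NUF2 at 93.5 CPM (41.8 to 48.6), NDC80 at 92.4 CPM (48.1 to 53.5), HMMR at 130 CPM (57.3 to 65.3) and ANLN at 578 CPM (326 to 343). The same library was the lowest for CDCA8 at 62.8 CPM (83.6 to 86.4). For CDCA3, exposed replicate 1 was the lowest at 62.1 CPM (70.3 to 71.9). None of these 9 members was called between exposed and control cells at 30 weeks with all libraries in the fit, and HMMR was called lower once exposed replicate 2 was left out.

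Exposed replicate 2 was the highest of the 4 for 29 of the 39 members (74.4%), beside 36.8% of all genes, and the lowest for 6 (15.4%), beside 39.7% of all genes. The 6 were FOXM1, PLK1, TPX2, CDCA8, CDC20 and MKI67, while CDK1, CCNB1, CENPF, NUF2 and NDC80 were highest there.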

How the results depend on the processing

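At 30 weeks of exposure 8 members were called; the count was 9 with surrogate variables (4 shared), 2 with the time point fitted alone, 13 with the offset for GC content and length, and 2 (without control replicate 1) to 13 (without exposed replicate 2) when a library was left out. At 15 weeks it was 0, and 1 (KIF20A, lower) with the time point fitted alone. For the difference between 30 and 15 weeks it was 0, against 2 with DESeq2, 4 with surrogate variables, 3 with the offset, and 0 to 2 without a library. From 24 h to 15 weeks the controls had 1, against 10 with surrogate variables, 11 with batch 1 alone, 2 with upper-quartile scaling, 0 without the small RNAs, 6 with the offset and 0 to 6 without a library. Exposed cells had 3, against 5 with DESeq2, 11 with surrogate variables, 15 with batch 1 alone, 10 with the offset, and 1 (without exposed replicate 2 of 15 weeks) to 8 without a library. From 15 to 30 weeks, leaving out a 30-week library gave 30 to 36 in controls, beside 44.4% to 57.2% of all genes. In exposed cells it gave 24 to 32, beside 40.7% to 54.3% of all genes. Leaving out a 15-week library lowered the count in its own arm, for members and for all genes. For exposure at 24 h the count was 0 throughout. Over all genes, the difference between 30 and 15 weeks was called for 4.74%, 6.81% (DESeq2), 13.4% (surrogate variables) and 7.66% (offset). From 24 h to 15 weeks controls had 24.9% of all genes, against 39.1% with surrogate variables, 42.6% with batch 1 alone and 34.1% with the offset. Exposed cells had 26%, against 39.2%, 43.7% and 36.2%. Members had 25.6%, 28.2% and 15.4% there in controls, and 28.2%, 38.5% and 25.6% in exposed cells. The cause of these shifts was not tested. A fit that leaves 1 library in a group assumes that it varies like the other groups.

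With exposure at 30 weeks, CDK1 turned from 0.04 to -0.04 with limma-voom, -0.31 with surrogate variables, -0.03 with the replicate block, -0.07 without control replicate 3 and -0.32 without exposed replicate 2, in a range up to 0.19 without a library. With surrogate variables CCNB1 turned to -0.02 and BUB1 to -0.04. From 15 to 30 weeks the offset turned CDC20 to -0.02 in controls and -0.24 in exposed cells, and AURKB to -0.03 in exposed cells, and MKI67 turned to -0.005 in exposed cells without exposed replicate 1 of 30 weeks, in a range up to 0.28.

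Same-numbered libraries showed little shared deviation (correlations of -0.12 to 0.30 between the arms). The labels do not say whether the numbers pair them, and so few libraries per arm cannot settle it. With the replicate number as a block, 8 members were called at 30 weeks, 7 of them shared with the fit without it; BUB1B came in and KIF11 went out. At 30 weeks of exposure the smallest rise called was 1.33-fold (PRC1), and NUF2 at 1.36-fold was not called, with 3 control and 4 exposed libraries.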
